A study of Mus musculus with 19 samples.

Results

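The genes followed here carry the signal of the bone morphogenetic proteins (BMPs). They are the type I receptors Acvr1, Bmpr1a and Bmpr1b, the type II receptors Bmpr2 and Acvr2a, the signal carriers Smad1 and Smad5, and the target genes Id1, Id2 and Id3. They were chosen by name and not by a measured value, but with earlier results of these data known. They make up 10 of the 27998 genes in the count tables. Each of the 10 had UMIs (counted molecules) in the kept cells of each of the 19 libraries.

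Cells came from the extremity injury site of mice in the burn/tenotomy model of heterotopic ossification (HO), in which bone forms in soft tissue after a burn of 30% of the body surface and a cut Achilles tendon. Day 0 gave 4 libraries, and the time points after injury gave 3 (day 3), 4 (day 7) and 4 (day 21). A further 4 came from animals given p7N3, a peptide that activates CD47, at 10 mg/kg by the intraperitoneal route on each of the 3 days before and the 3 days after injury. The labels list the burn for each group, day 0 included. The text of the study describes its day 0 homogenates as without burn or tenotomy and its day 0 single cells as taken before injury. The wild-type animals of the study were male C57BL/6J mice of 6 to 10 weeks. The labels also name LysmCre/Tgfb1fx/fx mice, in which a Cre active in myeloid cells deletes Tgfb1, without saying which libraries carry it. The labels give the day 7 libraries no vehicle, and the study's text describes PBS as its control of the peptide. The harvest day is missing for 1 peptide library (replicate 4), and it was compared with day 7 like the rest. Nothing says how many animals a library holds, while the study reports repeating its single-cell experiments to gauge variability between mice. The p-values measure the spread between libraries, and whether that equals the spread between mice is not given.

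BMPs bind a complex of type I and type II receptors. The type II receptor switches on the type I receptor, which phosphorylates Smad1 and Smad5, and these enter the nucleus and raise transcription of the Id genes. The Id proteins hold E proteins such as Tcf3 away from DNA and thereby delay differentiation. Activating mutations of human ACVR1 cause fibrodysplasia ossificans progressiva, an inherited form of HO. Id1 and Id3 are known from the endothelium, where circulating BMPs keep them on, and Id2 from natural killer, innate lymphoid and dendritic cells.

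The genes lie on different chromosomes or far apart. On GRCm38 (GENCODE vM21) Acvr1 is at chr2:58388644-58567157, Bmpr1a at chr14:34410734-34503341, Bmpr1b at chr3:141837136-142169425 and Smad1 at chr8:79338395-79399518, all on the minus strand. Bmpr2 is at chr1:59763400-59879014, Acvr2a at chr2:48814109-48903269 and Smad5 at chr13:56703010-56742377, on the plus strand. Id1 is at chr2:152736251-152737410 and Id3 at chr4:136143497-136145755 on the plus strand, and Id2 at chr12:25093799-25097140 on the minus strand. All are annotated as protein coding.

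The promoters of Id2 and Id3 are shown because these are the 2 target genes whose change after injury differed most between stromal-like and monocyte/macrophage-like cells. They are the 300 bases from 250 before to 50 after the gene's start in RefSeq (GRCm38.p6), at chr12:25096043-25096342 on the minus strand for Id2 and chr4:136143572-136143871 on the plus strand for Id3. Capitals mark the letters GGCGCC, which Smad1 and Smad5 are known to bind, and GTCT, which Smad4 is known to bind, with AGAC as GTCT of the other strand.
Id2: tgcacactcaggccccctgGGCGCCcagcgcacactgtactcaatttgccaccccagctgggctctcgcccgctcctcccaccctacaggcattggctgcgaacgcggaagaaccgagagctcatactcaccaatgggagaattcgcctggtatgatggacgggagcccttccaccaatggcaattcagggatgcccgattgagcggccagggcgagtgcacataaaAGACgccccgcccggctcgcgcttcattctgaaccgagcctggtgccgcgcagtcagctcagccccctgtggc
Id3: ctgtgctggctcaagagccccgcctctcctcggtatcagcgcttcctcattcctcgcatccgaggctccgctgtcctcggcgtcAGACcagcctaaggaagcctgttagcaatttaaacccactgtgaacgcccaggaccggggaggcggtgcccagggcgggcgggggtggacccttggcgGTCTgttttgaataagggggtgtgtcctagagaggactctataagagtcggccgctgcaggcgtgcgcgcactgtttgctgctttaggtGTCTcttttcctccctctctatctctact
The Id2 window held 1 GGCGCC and 1 GTCT, and the Id3 window held 3 GTCT without the longer motif. Of the 32851 promoters of this length, 11.9% held GGCGCC and 88.0% held GTCT. Both were searched on both strands. The joined motif, GGCGCC and GTCT with 5 bases between them, was found in 24 promoters and in none of the 9 members with an entry. Id1 had no entry and was not searched. These matches describe letters and are not binding sites.

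A total of 39541 cells were kept. Libraries of day 0 held 3019467 to 5383855 UMIs in kept cells, and all others 11064153 to 39870492, which leaves the whole-library values of day 0 the least precise. Within lineages this could differ. Endothelial-like cells numbered 997 at day 0 and 81 at day 3, and pericyte/smooth muscle-like cells 182 and 94. Clusters were named from marker genes, with the members left out of the genes used for clustering. The main lineages were stromal-like (10590 cells), endothelial-like (2841), pericyte/smooth muscle-like (1904) and monocyte/macrophage-like (14394). Levels are CPM, which is the UMI count of a gene scaled to the total of that lineage in that library. Day 3 had 26 to 28 endothelial-like cells per library. The summed level of 12 monocyte/macrophage markers in the stromal-like cells ran from 132 to 263 CPM on day 0, from 1533 to 1812 on day 3 and from 489 to 840 on day 7, and Ptprc, the pan-leukocyte gene, was found in 44.4% of the cells of the cluster that made up most of the stromal-like cells of day 3. In the endothelial-like cells the same sum ran from 272 to 494 on day 0 and from 1222 to 1705 on day 3. The part of this carried RNA in the results below was not tested.

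Id1 was highest in the endothelium of the injury site. At day 7 its level was 327 ± 94.5 CPM (SD, n = 4) in endothelial-like cells, 130 in lymphatic endothelial-like cells, 39.8 ± 15.7 in pericyte/smooth muscle-like cells and 6.45 ± 0.773 in stromal-like cells. At day 0 the libraries of the endothelial-like cells (1114 ± 97.9 CPM) lay above those of the lymphatic endothelial-like cells (343), with the muscle progenitor-like cells (227) and pericyte/smooth muscle-like cells (165) next and overlapping each other. Endothelial-like cells held 73.5% of all Id1 UMIs of the day 0 libraries and 42.1% of those of day 3. In whole libraries Id1 had means of 383, 24.1 and 98.7 CPM at days 0, 3 and 21, a sum in which fewer endothelial cells and less RNA per cell cannot be told apart. The values within lineages are therefore used from here on.

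Id3 at day 0 was 1728 ± 108 CPM in endothelial-like, 1288 ± 303 in muscle progenitor-like and 1104 ± 120 in pericyte/smooth muscle-like cells, and neighbours in this order overlapped. At day 21 it was 1641 ± 614 in muscle progenitor-like cells (3 libraries), which overlapped the others again. Id2 had another order. It was highest in T/NK lymphocyte-like (739 CPM) and dendritic cell-like cells (661) at day 7, then 283 ± 76.5 in monocyte/macrophage-like cells and 52.2 ± 13.2 in stromal-like cells. Among single clusters Id2 reached 1254 CPM over all groups in the dendritic cell-like cluster led by Ccr7.

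The receptors were spread over the mesenchyme and the vessels. At day 7 Bmpr1a stood between 52.5 and 65.7 CPM in stromal-like, tenocyte-like, pericyte/smooth muscle-like and Schwann cell-like cells, with overlapping libraries, and at 1.81 in endothelial-like cells. Bmpr2 was highest in endothelial-like cells (89.3 ± 18.6 CPM at day 7). Acvr1 was highest in tenocyte-like cells (37.7 ± 2.2 CPM at day 7), whose libraries lay above those of the stromal-like cells (32.7 ± 2.57). At day 21 the gap was wider, with 53.0 CPM in tenocyte-like and 31.4 ± 1.21 in stromal-like cells. Smad1 was highest in lymphatic endothelial-like cells (371 CPM at day 7), then in endothelial-like cells (214 ± 18.7) and tenocyte-like cells (72.2), and these lineages did not overlap. Smad5 had the same lineage on top, at 108 CPM. Lineages are clusters of the same cells, so that their order is described and not tested.

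**Figure D1:**
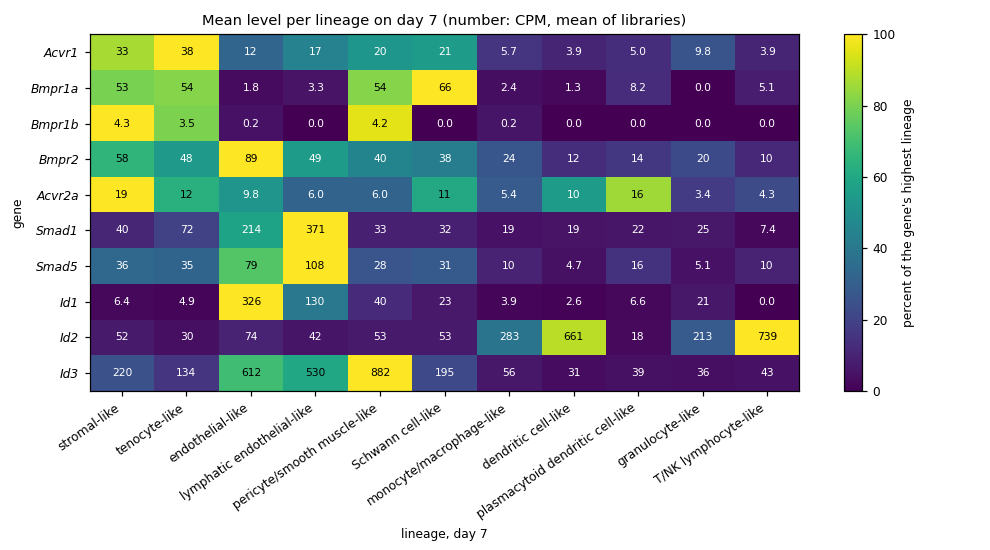
Mean level of the 10 genes (rows) in 11 lineages (columns) on day 7. Numbers are CPM as means of the libraries, and the color gives each level as a percentage of the gene's highest lineage. Id1 and Bmpr2 peak in endothelial-like, Smad1 and Smad5 in lymphatic endothelial-like, and Id2 in T/NK lymphocyte-like cells.

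The question of the time course was how these genes changed within a lineage after injury. Libraries were compared with edgeR at an adjusted p of 0.05 over all genes tested, and counts of members are given with the share of all genes called in the same comparison. From day 0 to day 3 in stromal-like cells, 6 of the 9 members tested fell and none rose, where 66.1% of all genes were called, 33.3% higher and 32.8% lower. From day 3 to day 7, 5 of 10 rose and 1 fell (36.9% of all genes, 19.2% higher and 17.8% lower). From day 7 to day 21, 6 of 10 rose (33.6%, with 16.8% higher and 16.8% lower). Day 21 against day 0 gave 2 higher and 2 lower of 9 (33.2%, with 16.9% higher and 16.3% lower).

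In endothelial-like cells 3 of 8 members fell by day 3 (57.8% of all genes, 29.2% higher and 28.7% lower). From day 3 to day 7, 1 of 8 rose (15.8%, with 7.1% higher and 8.71% lower). By day 21, 4 rose and 1 fell against day 7 (28.4%, with 15.2% higher and 13.3% lower), and 1 was higher and 2 lower than at day 0 (26.8%, with 14% higher and 12.8% lower).

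In pericyte/smooth muscle-like cells 4 of the 5 members tested fell by day 3 (57.1% of all genes, 28.2% higher and 28.9% lower). From day 3 to day 7, 1 of 8 fell (7.99%, with 2.84% higher and 5.15% lower). By day 21, 5 of 9 rose against day 7 (31.1%, with 15.9% higher and 15.2% lower), and 1 was higher and 3 lower of 8 against day 0 (31.7%, with 15.8% higher and 15.9% lower).

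Of the 5 members tested in monocyte/macrophage-like cells, 1 rose and 3 fell by day 3 (53.2% of all genes, 25.3% higher and 27.9% lower). From day 3 to day 7, 2 of 9 rose and 3 fell (29.9%, with 14.2% higher and 15.7% lower). From day 7 to day 21 none of 8 was called (13.3%, with 6.95% higher and 6.38% lower), and against day 0 1 of 6 was higher and 1 lower (26.8%, with 12.4% higher and 14.4% lower). For that count of none, edgeR gave 3 members an unadjusted p under 0.05 and DESeq2 gave 2. In all, 59 calls were made over 20 comparisons, 29 higher and 30 lower. The member shares lay near the background in several comparisons, day 3 against day 0 in stromal-like cells among them.

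**Figure D2:**
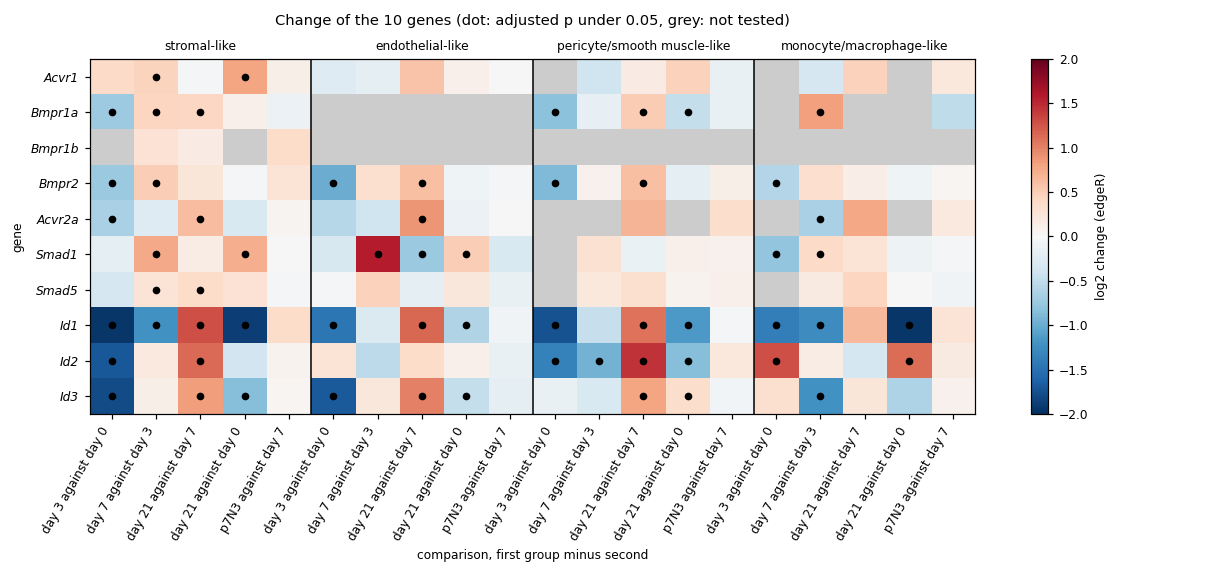
Log2 change of each member (rows) in 20 comparisons (columns, first group minus second, by lineage), from edgeR. Dots mark an adjusted p under 0.05 and grey marks genes not tested because of low counts. The day 3 columns are blue for Id1 in all 4 lineages, Id2 is blue in stromal-like and pericyte/smooth muscle-like cells and red in monocyte/macrophage-like cells, and the p7N3 columns hold no dot.

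Id1 fell in the endothelium by day 3. The 4 endothelial-like libraries of day 0 had 1119, 1033, 1250 and 1053 CPM, and the 3 of day 3 had 373, 375 and 375. Day 7 gave 463, 262, 264 and 316, and day 21 gave 612, 947, 698 and 600. The day 3 and day 7 libraries all lay below those of day 0, and day 21 lay above day 7 without reaching day 0 in any library. The log2 change was -1.45 ± 0.10 (SE) from day 0 to day 3 (adjusted p = 3.86e-08), not called from day 3 to day 7 (-0.28 ± 0.18), and 1.15 ± 0.19 from day 7 to day 21 (adjusted p = 0.000836). Day 21 stayed below day 0, at -0.60 ± 0.13 (adjusted p = 0.00424).

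Id3 had endothelial-like levels of 1582, 1793, 1824 and 1712 CPM at day 0, 604, 448 and 428 at day 3, 793, 483, 599 and 574 at day 7, and 1141, 1610, 1119 and 961 at day 21. The groups of day 0 and of days 3 and 7 did not overlap, and 1 library of day 21 lay within the range of day 0. Id3 fell by 1.69 ± 0.11 on the log2 scale to day 3 (adjusted p = 3.86e-08) and rose by 1.01 ± 0.17 from day 7 to day 21 (adjusted p = 0.000953). Its difference between day 21 and day 0 was -0.48 ± 0.13 (adjusted p = 0.0138), and with replicates 1 to 3 only the call was lost (adjusted p = 0.0522). Id2 did not follow. Its endothelial-like means were 91.1 ± 16.7 CPM at day 0, 100 ± 38.8 at day 3, 74.1 ± 15.3 at day 7 and 94.8 ± 19.9 at day 21, with overlapping libraries and no call in any comparison.

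The endothelial-like cells of the days were not of the same clusters. The cluster led by Timp4, Tcf15 and Gpihbp1, genes of capillaries, held 938 of the 997 endothelial-like cells of day 0 and 3 of the 81 of day 3. The cluster led by Plvap and Aplnr held 59 cells at day 0, 78 at day 3, 558 at day 7 and 315 at day 21. Within this second cluster Id1 was 1110 ± 245 CPM at day 0, 372 ± 5.59 at day 3, 319 ± 95.5 at day 7 and 468 ± 190 at day 21, and in the first cluster it was 1114 ± 97.6 at day 0. Id3 in the Plvap cluster was 1147 ± 342 CPM at day 0, 470 at day 3 and 790 at day 21. At day 21 the capillary cluster had 1127 ± 103 CPM of Id1 and 1922 ± 261 of Id3, and at day 0 the same cluster had 1764 ± 107 of Id3. At day 21 this cluster held 319 of the 634 endothelial-like cells, against 30 of 588 at day 7.

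Measured as cells, and with each cell thinned to 1500 UMIs so that depth did not differ, Id1 was found in 75.2% of endothelial-like cells at day 0, 35.5% at day 3, 33.0% at day 7 and 55.2% at day 21. Without thinning the shares were 88.6%, 89.1%, 69.1% and 82.2%, where cells were deeper at days 3, 7 and 21 than at day 0. In monocyte/macrophage-like cells, the lineage with the lowest Id1 of the 4, the thinned shares were 4.18%, 1.90%, 0.495% and 0.963%. Thinning left out 111 endothelial-like and 32 monocyte/macrophage-like cells, all of day 0.

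The stromal-like cells, which hold the fibroblasts and progenitors of the injury site, had less of all 3 Id transcripts by day 3. Id3 was at 657, 683, 717 and 753 CPM at day 0, 192, 180 and 205 at day 3, 212, 217, 230 and 223 at day 7, and 386, 450, 309 and 389 at day 21. No library of days 3 or 7 came near day 0, and each library of day 21 lay between day 7 and day 0. The log2 change was -1.78 ± 0.10 to day 3 (adjusted p = 5.27e-09), 0.12 ± 0.09 from day 3 to day 7 (not called), 0.83 ± 0.11 from day 7 to day 21 (adjusted p = 0.000823) and -0.84 ± 0.11 for day 21 against day 0 (adjusted p = 9.89e-05).

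Id2 in the same cells was 106, 153, 158 and 183 CPM at day 0, 37.7, 49.0 and 43.0 at day 3, 56.9, 37.8, 68.2 and 46.1 at day 7, and 105, 112, 99.7 and 131 at day 21. The day 3 and day 7 libraries overlapped and lay below the others, while day 21 overlapped day 0. It fell by 1.69 ± 0.17 on the log2 scale (adjusted p = 1.01e-06) and rose by 1.13 ± 0.17 from day 7 to day 21 (adjusted p = 0.00134). The difference of day 21 from day 0 was -0.39 ± 0.15 (adjusted p = 0.0724). With tenocyte-like and chondrocyte-like cells added it was -1.10 (adjusted p = 7.77e-05), and over all alternatives the adjusted p lay between that value and 0.236.

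Id1 was low in stromal-like cells and went on falling after day 3. The libraries had 68.0, 64.9, 56.8 and 42.1 CPM at day 0, 16.7, 10.9 and 15.4 at day 3, 6.33, 5.55, 7.43 and 6.48 at day 7, and 12.6, 23.1, 11.5 and 15.1 at day 21. These first 3 groups did not overlap. The log2 changes were -1.94 ± 0.18 to day 3 (adjusted p = 6.4e-07), -1.22 ± 0.17 from day 3 to day 7 (adjusted p = 0.000902) and 1.28 ± 0.20 from day 7 to day 21 (adjusted p = 0.0014), with day 21 at -1.89 ± 0.20 against day 0 (adjusted p = 1.53e-05). The part of carried endothelial RNA in this level was not tested otherwise than by its markers. The summed level of 8 endothelial markers in stromal-like cells was 52.4 to 148 CPM at day 0 and 27.5 to 32.3 at day 3, and an amount of endothelial RNA to match would carry 12.6 CPM of Id1 at day 0, where 58.0 was measured.

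Here too the clusters differed between days. Of 1146 stromal-like cells of day 0, 948 were in the cluster led by Myoc and 186 in the cluster led by Has1 and C3, while 745 of the 815 of day 3 were in a cluster led by Prg4, Cxcl14 and Wisp2. Within the Myoc cluster Id3 was 545 ± 40.6 CPM at day 0, 312 at day 7 and 385 at day 21. Within the Has1 cluster it was 1469 ± 236 CPM at day 0, 521 ± 66.7 at day 7 and 1308 ± 434 (3 libraries) at day 21. The Prg4 cluster had 190 CPM of Id3 at day 3 and 510 at day 7, which was above the lineage as a whole. Id1 in the Myoc cluster was 58.7 CPM at day 0, 9.16 at day 7 and 13.7 at day 21. Both clusters shared by these days had lower Id3 means after injury, but the SDs of the Has1 cluster at day 0 and day 21 overlapped. At day 7 the Myoc and Has1 clusters held 140 and 226 of the 3783 stromal-like cells. At day 21 they held 327 and 74 of 1585. The cluster led by Sfrp4, Clec3b and Eln held the most cells on both days, 1270 and 1021, and 9 at day 0. The part that cluster makeup has in the fall to day 3 was not tested.

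**Figure D3:**
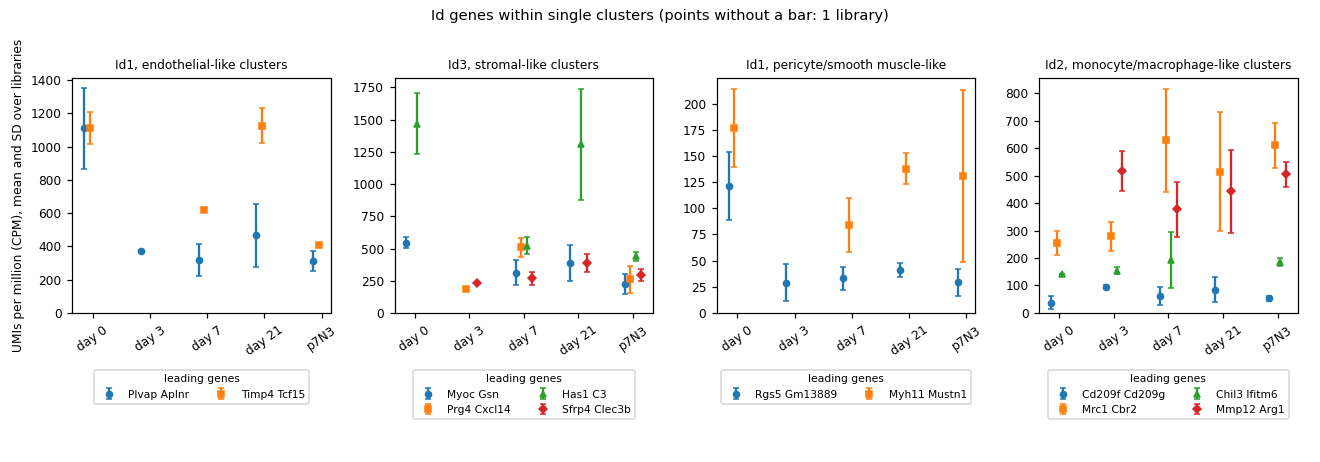
Levels of an Id gene within single clusters of a lineage, in CPM (y axis) by group (x axis), as the mean and SD over libraries. In the Plvap cluster Id1 went from 1110 at day 0 to 372 at day 3. In the Mrc1 cluster Id2 went from 253 at day 0 (2 libraries) to 628 at day 7, and its day 3 level was close to that of day 0.

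**Figure D4:**
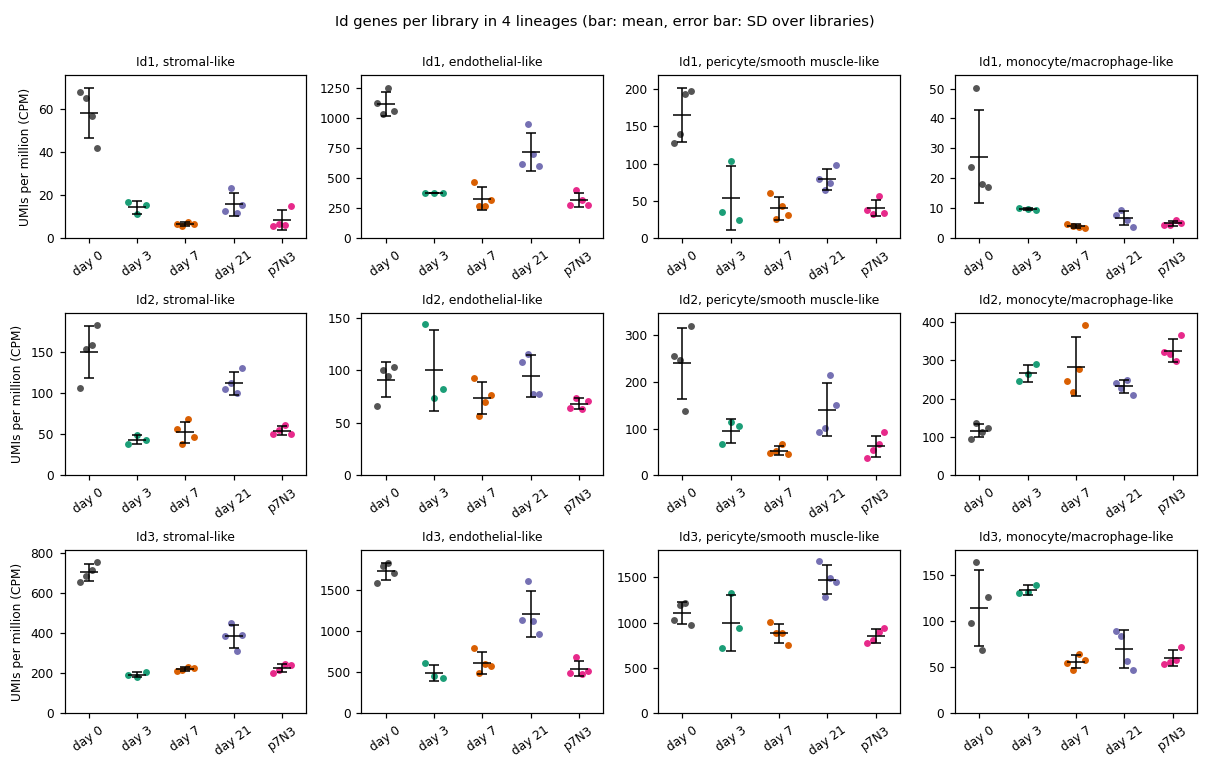
Id1, Id2 and Id3 (rows) in each library of 4 lineages (columns), in CPM, by group. Points are libraries, bars are means and error bars are SDs. The 4 day 0 libraries lie above all others for Id1 in endothelial-like and stromal-like cells, whereas for Id2 in monocyte/macrophage-like cells they lie below all others.

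In pericyte/smooth muscle-like cells the Id genes parted. Id1 was at 128, 140, 194 and 198 CPM at day 0, 35.1, 103 and 23.5 at day 3, 60.6, 25.3, 42.7 and 30.5 at day 7, and 78.6, 64.2, 74.3 and 98.0 at day 21. On the measured level, its log2 change was -1.75 ± 0.38 to day 3 (adjusted p = 0.00113) and 1.08 ± 0.22 from day 7 to day 21 (adjusted p = 0.00202). Without overlap with day 0 in any later library, Id1 at day 21 stayed lower (-1.14 ± 0.19, adjusted p = 0.000283). Id2 fell by 1.35 ± 0.26 to day 3 (adjusted p = 0.000503) and rose by 1.44 ± 0.23 from day 7 to day 21 (adjusted p = 0.000358), with means of 239 ± 75.7, 95 ± 25.4, 53.0 ± 9.83 and 140 ± 56.1 CPM at days 0, 3, 7 and 21. Its fall from day 3 to day 7 (-0.94 ± 0.21, adjusted p = 0.0134) was not called without day 3 replicate 3 (adjusted p = 0.0822), nor its difference of day 21 from day 0 (-0.85 ± 0.27, adjusted p = 0.0239) without day 0 replicates 1 or 4 or day 21 replicates 1 or 2 (adjusted p from 0.0589 to 0.14).

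Id3 in these cells had means of 1104 ± 120 CPM at day 0, 994 ± 309 at day 3 and 882 ± 106 at day 7, with overlapping libraries and no call between them. It rose by 0.79 ± 0.11 on the log2 scale from day 7 to day 21 (adjusted p = 0.000105), when the libraries had 1680, 1283, 1497 and 1444 CPM. All 4 were above each library of day 0. That difference from day 0 was 0.35 ± 0.11 (adjusted p = 0.0205), and it was not called without day 0 replicate 1 (adjusted p = 0.0516), without day 0 replicate 4 (adjusted p = 0.0592), with replicates 1 to 3 only (adjusted p = 0.0821) or with at most 10% mitochondrial UMIs per cell (adjusted p = 0.114).

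Smooth muscle and pericyte clusters were mixed in this lineage. At day 0, 145 of 182 cells were in the cluster led by Myh11, a myosin of smooth muscle, and at day 7, 471 of 559 were in the cluster led by Rgs5, a pericyte gene. Id1 in the Rgs5 cluster was 121 CPM (2 libraries) at day 0, 29.1 at day 3, 33.0 at day 7 and 41.2 at day 21. In the Myh11 cluster it was 177 ± 37.2 CPM at day 0, 84.2 at day 7 and 138 ± 14.6 at day 21. Endothelial markers summed to 270 to 421 CPM in the lineage at day 0 and 335 to 434 at day 21, to which 47.7 and 42.9 CPM of Id1 would belong, against measured means of 165 and 78.8. With that part taken off, the libraries spanned 80.5 to 160 CPM at day 0 and 7.85 to 88.4 at day 3, which overlapped. Those of day 7 (6.17 to 33.9) and day 21 (2.63 to 66.3) overlapped each other and lay below those of day 0. Whether Id1 changed in these cells apart from carried RNA was not tested.

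Monocyte/macrophage-like cells went the other way for Id2. The libraries had 94.4, 136, 112 and 123 CPM at day 0 and 245, 264 and 290 at day 3. Day 7 gave 246, 218, 277 and 392, and day 21 gave 240, 229, 248 and 211. Each library after injury lay above each of day 0. Id2 rose by 1.29 ± 0.13 on the log2 scale to day 3 (adjusted p = 1.31e-05) and stood at 1.11 ± 0.14 at day 21 against day 0 (adjusted p = 2.51e-05). In cells thinned to 1500 UMIs, Id2 was found in 11.2% at day 0, 25.9% at day 3, 25.5% at day 7 and 21.4% at day 21 (17.5%, 62.1%, 49.3% and 47.3% without thinning).

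Id2 levels were unequal across the clusters of this lineage. In the cluster led by Cd209f, which held 274 of the 368 cells of day 0, it was 37.6 ± 22.9 CPM at day 0, 95.2 ± 7.03 (2 libraries) at day 3 and 61.9 at day 7. In the cluster led by Mrc1 and Cbr2 it was 253 (2 libraries) at day 0, 279 at day 3 and 628 ± 186 at day 7. In the cluster led by Chil3 and Ly6c2, genes of inflammatory monocytes, it was 154 at day 3, and in the cluster led by Mmp12 and Arg1 it was 516 at day 3. These clusters held 1611 and 685 of the 3837 cells of day 3 against 19 and 3 at day 0, so the rise of the lineage came with a change in its clusters.

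Id1 was scarce in monocyte/macrophage-like cells. It was 23.6, 50.1, 18.1 and 17.1 CPM at day 0 (38 UMIs in all), 10.1, 9.60 and 9.29 at day 3, and 4.78, 4.05, 3.48 and 3.14 at day 7. RNA in proportion to the endothelial markers found in these cells would carry 15.6 CPM of Id1 at day 0, where the mean was 27.2, 2.17 at day 3, where it was 9.67, and 5.82 at day 21, where it was 6.62. Id1 fell by 1.39 ± 0.30 on the log2 scale to day 3 (adjusted p = 0.00243) and by 1.26 ± 0.16 from day 3 to day 7 (adjusted p = 0.000353). It stood at -1.95 ± 0.40 at day 21 against day 0 (adjusted p = 0.00168). These tests used the measured level. With the carried part taken off, the libraries of day 0 spanned 4.16 to 27.18 CPM (mean 11.7). The day 3 libraries, spanning 6.96 to 7.81 (mean 7.50), fell inside that range. Day 7 libraries lay lower, between 1.69 and 2.75, and those of day 21 (-2.54 to 4.18) overlapped day 0. Whether Id1 fell by day 3 apart from carried RNA was not tested. Id3 was 114 ± 40.9 CPM at day 0, 134 ± 5.09 at day 3 (not called) and 55.7 ± 7.18 at day 7, a fall of 1.22 ± 0.10 on the log2 scale (adjusted p = 6.74e-05).

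The difference between lineages was tested directly for day 3 against day 0, with the library as a term. The change of Id2 in stromal-like minus that in monocyte/macrophage-like cells was -3.03 ± 0.16 on the log2 scale (adjusted p = 1.1e-14) and for Id3 it was -2.18 ± 0.18 (adjusted p = 8.8e-11), with 2 of the 9 members tested called where 28.1% of all genes were (16.2% with a positive difference and 12.0% with a negative one). The difference for Id1 was -0.70 ± 0.30 (adjusted p = 0.0803). For endothelial-like minus stromal-like cells the difference of Id2 was 2.01 ± 0.23 (adjusted p = 7.26e-07), that of Id1 0.52 ± 0.18 (adjusted p = 0.0337) and that of Id3 0.13, which was not called. Here 2 of 9 were called, with 25% of all genes (14.4% higher and 10.6% lower). DESeq2 did not call the Id1 difference (adjusted p = 0.253), and neither did edgeR without day 0 replicate 1 (adjusted p = 0.122), day 0 replicate 2 (adjusted p = 0.0809), day 3 replicate 2 (adjusted p = 0.202) or day 3 replicate 3 (adjusted p = 0.0512).

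Genes that respond to tissue digestion and stress moved with the Id genes in part. The summed level of 14 such genes (Fos, Jun, Egr1, Atf3 and others) in stromal-like cells was 6667 to 9342, 3821 to 4640 and 4357 to 5050 CPM at days 0, 3 and 21, and in pericyte/smooth muscle-like cells 13029 to 17977, 4297 to 8560 and 10428 to 14274. In endothelial-like cells it was 4793 to 6354 at day 0 and 2814 to 4675 at day 3, below day 0 as Id1 and Id3 were, and 7485 to 9309 at day 21, above day 0, where Id1 and Id3 were below it. From day 7 to day 21, 13 of the 14 rose in endothelial-like and in pericyte/smooth muscle-like cells. Of all genes tested, 1413 of 9324 and 1469 of 9225 rose there. In stromal-like cells 1 rose and 1 fell, and all 3 Id genes rose. Of the 12715 genes tested there, 2134 rose and 2139 fell. The part of stress in the Id levels was not tested. Free RNA could be read in 1 library, day 0 replicate 1, whose file holds 367171 barcodes of 1 to 100 UMIs. There Id1 was at 318 CPM (95% Poisson interval 300 to 336, counting error only) and 324 in the kept cells, and Id3 at 860 and 813.

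Of the type I receptors, Acvr1, whose mutated form causes inherited HO, was higher in stromal-like cells at day 21 than at day 0. The libraries had 16.5, 28.6, 19.1 and 14.3 CPM at day 0, 23.0, 24.2 and 21.0 at day 3, 34.2, 28.9, 34.2 and 33.6 at day 7, and 30.3, 30.5, 32.2 and 32.8 at day 21. Days 7 and 21 lay above day 0 without overlap. Acvr1 rose by 0.45 ± 0.10 on the log2 scale from day 3 to day 7 (adjusted p = 0.00785) and by 0.79 ± 0.16 from day 0 to day 21 (adjusted p = 0.00205). Between day 7 and day 21 the stromal-like difference was -0.02 ± 0.09, and with the tenocyte-like and chondrocyte-like cells added to the lineage it was 0.40 (adjusted p = 0.00358). Acvr1 was called in no comparison of the other 3 lineages. Its rise to day 7 was not called with the replicate number as a block (adjusted p = 0.064). The stromal-like cells of the days were of different clusters. The Myoc and Has1 clusters held 82.7% and 16.2% of them at day 0. The Prg4 cluster held 91.4% at day 3, and the cluster led by Sfrp4 64.4% at day 21 against 0.785% at day 0. The part of cluster makeup in the stromal-like changes of Acvr1, the other receptors, Smad1 and Smad5 was not tested.

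Bmpr1a, the main type I receptor of skeletal progenitors, dipped at day 3. Stromal-like libraries had 60.9, 61.0, 65.0 and 72.9 CPM at day 0, 34.5, 40.4 and 36.3 at day 3, 59.4, 45.8, 53.1 and 51.9 at day 7, and 66.4, 78.2, 64.4 and 65.9 at day 21. Each of days 3 and 7 lay below day 0, and day 21 overlapped it. The fall was -0.72 ± 0.12 (adjusted p = 9.7e-05), the rise from day 3 to day 7 was 0.43 ± 0.11 (adjusted p = 0.0132) and that from day 7 to day 21 was 0.41 ± 0.10 (adjusted p = 0.0107). The rise to day 7 was not called without day 3 replicate 1 (adjusted p = 0.0672) or day 3 replicate 3 (adjusted p = 0.0535), nor under the replicate block (adjusted p = 0.0731).

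In pericyte/smooth muscle-like cells Bmpr1a was 95.6 ± 13.8 CPM at day 0, 55.6 ± 7.66 at day 3, 53.6 ± 10.5 at day 7 and 74.1 ± 6.54 at day 21. It fell by 0.82 ± 0.22 on the log2 scale to day 3 (adjusted p = 0.00595) and rose by 0.51 ± 0.15 from day 7 to day 21 (adjusted p = 0.0149). The fall was not called with at most 10% mitochondrial UMIs (adjusted p = 0.0629) or with the cells of highest doublet score removed (adjusted p = 0.0892), nor the rise without day 7 replicate 2 (adjusted p = 0.0581), day 7 replicate 4 (adjusted p = 0.0515) or with replicates 1 to 3 only (adjusted p = 0.0544). At day 21 it stood below day 0 (-0.47 ± 0.17, adjusted p = 0.0486), a call lost without any 1 of the 4 day 0 libraries or of day 21 replicates 1, 3 and 4 (adjusted p from 0.0586 to 0.227).

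Bmpr1a was scarce in endothelial-like cells, with 7 UMIs in the day 0 cells and 2 in those of day 3. Thinned to 1500 UMIs, 0.243% of endothelial-like and 9.06% of stromal-like cells of day 0 held a UMI of it (0.729% and 27.7% without thinning), and the free RNA of day 0 replicate 1 held 26.9 CPM. Its rise in monocyte/macrophage-like cells from day 3 to day 7 (0.82 ± 0.24, adjusted p = 0.0273) was between means of 1.41 and 2.39 CPM, and without day 3 replicates 1 or 2 or day 7 replicates 2 or 4 the adjusted p lay between 0.0502 and 0.110.

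Bmpr1b, a type I receptor of cartilage condensations, was scarce. In stromal-like cells 3 UMIs were counted at day 0 (0.579 ± 0.537 CPM) and 99 at day 3 (3.44 ± 0.511). The day 3 libraries had 3.74, 2.85 and 3.72 CPM and lay above those of day 0, which had 0.472, 1.3, 0.546 and 0. This comparison did not pass the filter on low counts of edgeR and was not tested there. The alternatives that included it gave log2 changes of 2.47 to 3.18. With 3 UMIs at day 0, the gene could enter them only through its counts after injury or without that filter. Their p-values are therefore not used as support. The share of stromal-like cells with a UMI was 0.316% at day 0 and 11.3% at day 3. It was 0.0762% and 0.0891% after thinning each cell to 1500 UMIs. Libraries at these days spanned 0.0 to 0.305% and 0.0 to 0.267%, and overlapped. At that depth the share was 0.578% at day 7 (0.333 to 1.15%), above day 0, and 0.553% at day 21 (0.0 to 1.05%). Thinned to 3000 UMIs, which left out 237 cells of day 0, it was 0.0865% at day 0 and 0.797% at day 3. The libraries then ran from 0.0 to 0.346% and from 0.0 to 1.34%, and overlapped. Levels were 4.35 ± 0.913 CPM at day 7 and 4.60 ± 1.84 at day 21. In the Myoc cluster the level was 0.677 CPM at day 0, 0.473 at day 7 and 1.52 ± 2.48 at day 21. The Has1 cluster had 0.0 at day 0 and at day 7. At day 7 the clusters led by Crabp1, Ube2c, Gzme and Sfrp4 had 6.93, 6.12, 3.16 and 1.13 CPM. Of the day 0 cells, the Crabp1 cluster held 1 and the Sfrp4 cluster 9. The part of cluster makeup in the stromal-like levels of Bmpr1b was not tested. In endothelial-like cells no UMI was found at day 0, and in monocyte/macrophage-like cells no library exceeded 0.918 CPM. Over all groups the tenocyte-like cluster led by Cryab and Col8a1 had the highest level, 18.2 CPM.

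Of the type II receptors, Bmpr2 fell by day 3 in all 4 lineages, with the calls in pericyte/smooth muscle-like and monocyte/macrophage-like cells resting on single libraries. It is the receptor mutated in heritable pulmonary hypertension, and endothelial-like cells had the most of it. Their libraries had 149, 169, 133 and 135 CPM at day 0, 69.9, 63.6 and 69.0 at day 3, 102, 97.6, 95.7 and 61.6 at day 7, and 119, 132, 140 and 144 at day 21. Day 21 overlapped day 0, and day 3 lay below it. The log2 change was -0.99 ± 0.14 to day 3 (adjusted p = 3.25e-05) and 0.60 ± 0.14 from day 7 to day 21 (adjusted p = 0.00703). In the Plvap cluster alone Bmpr2 was 183 CPM at day 0, 67.4 at day 3, 89.4 at day 7 and 142 at day 21.

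In stromal-like cells Bmpr2 had 73.2, 72.7, 58.4 and 78.1 CPM at day 0 and 41.6, 33.2 and 43.8 at day 3, a fall of 0.75 ± 0.13 on the log2 scale (adjusted p = 0.000229), and it rose by 0.49 ± 0.13 to day 7 (adjusted p = 0.0135). It also fell in pericyte/smooth muscle-like cells (-0.88 ± 0.30, adjusted p = 0.022) and monocyte/macrophage-like cells (-0.59 ± 0.21, adjusted p = 0.0305). The first was not called without day 0 replicate 1, day 0 replicate 3 or day 3 replicate 1 (adjusted p from 0.0529 to 0.116) or by DESeq2 (adjusted p = 0.0677). The second was not called without any 1 of the 4 day 0 libraries or without day 3 replicate 1 (adjusted p from 0.0652 to 0.381). Bmpr2 in pericyte/smooth muscle-like cells rose by 0.60 ± 0.15 from day 7 to day 21 (adjusted p = 0.00602), and with replicates 1 to 3 only by 0.44 (adjusted p = 0.0688, not called).

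Acvr2a, the type II receptor shared with activins, was highest in stromal-like cells among the 4 main lineages. The libraries had 40.2, 44.2, 26.2 and 34.6 CPM at day 0, 20.1, 21.5 and 22.5 at day 3, 21.8, 18.0, 19.6 and 15.7 at day 7, and 28.6, 29.3, 33.6 and 23.4 at day 21. Days 3 and 7 lay below day 0, and day 21 overlapped it. Acvr2a fell by 0.65 ± 0.15 on the log2 scale to day 3 (adjusted p = 0.00212) and rose by 0.62 ± 0.13 from day 7 to day 21 (adjusted p = 0.00623). With tenocyte-like and chondrocyte-like cells added, that rise was 0.14 (adjusted p = 0.406). In endothelial-like cells it rose from 9.83 ± 1.67 to 18.2 ± 4.67 CPM over the same days (0.88 ± 0.23, adjusted p = 0.013). The fall in monocyte/macrophage-like cells from day 3 to day 7 (-0.65 ± 0.20, adjusted p = 0.0329) was not called without day 3 replicates 1 or 2 or day 7 replicates 2, 3 or 4 (adjusted p from 0.0631 to 0.117).

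**Figure D5:**
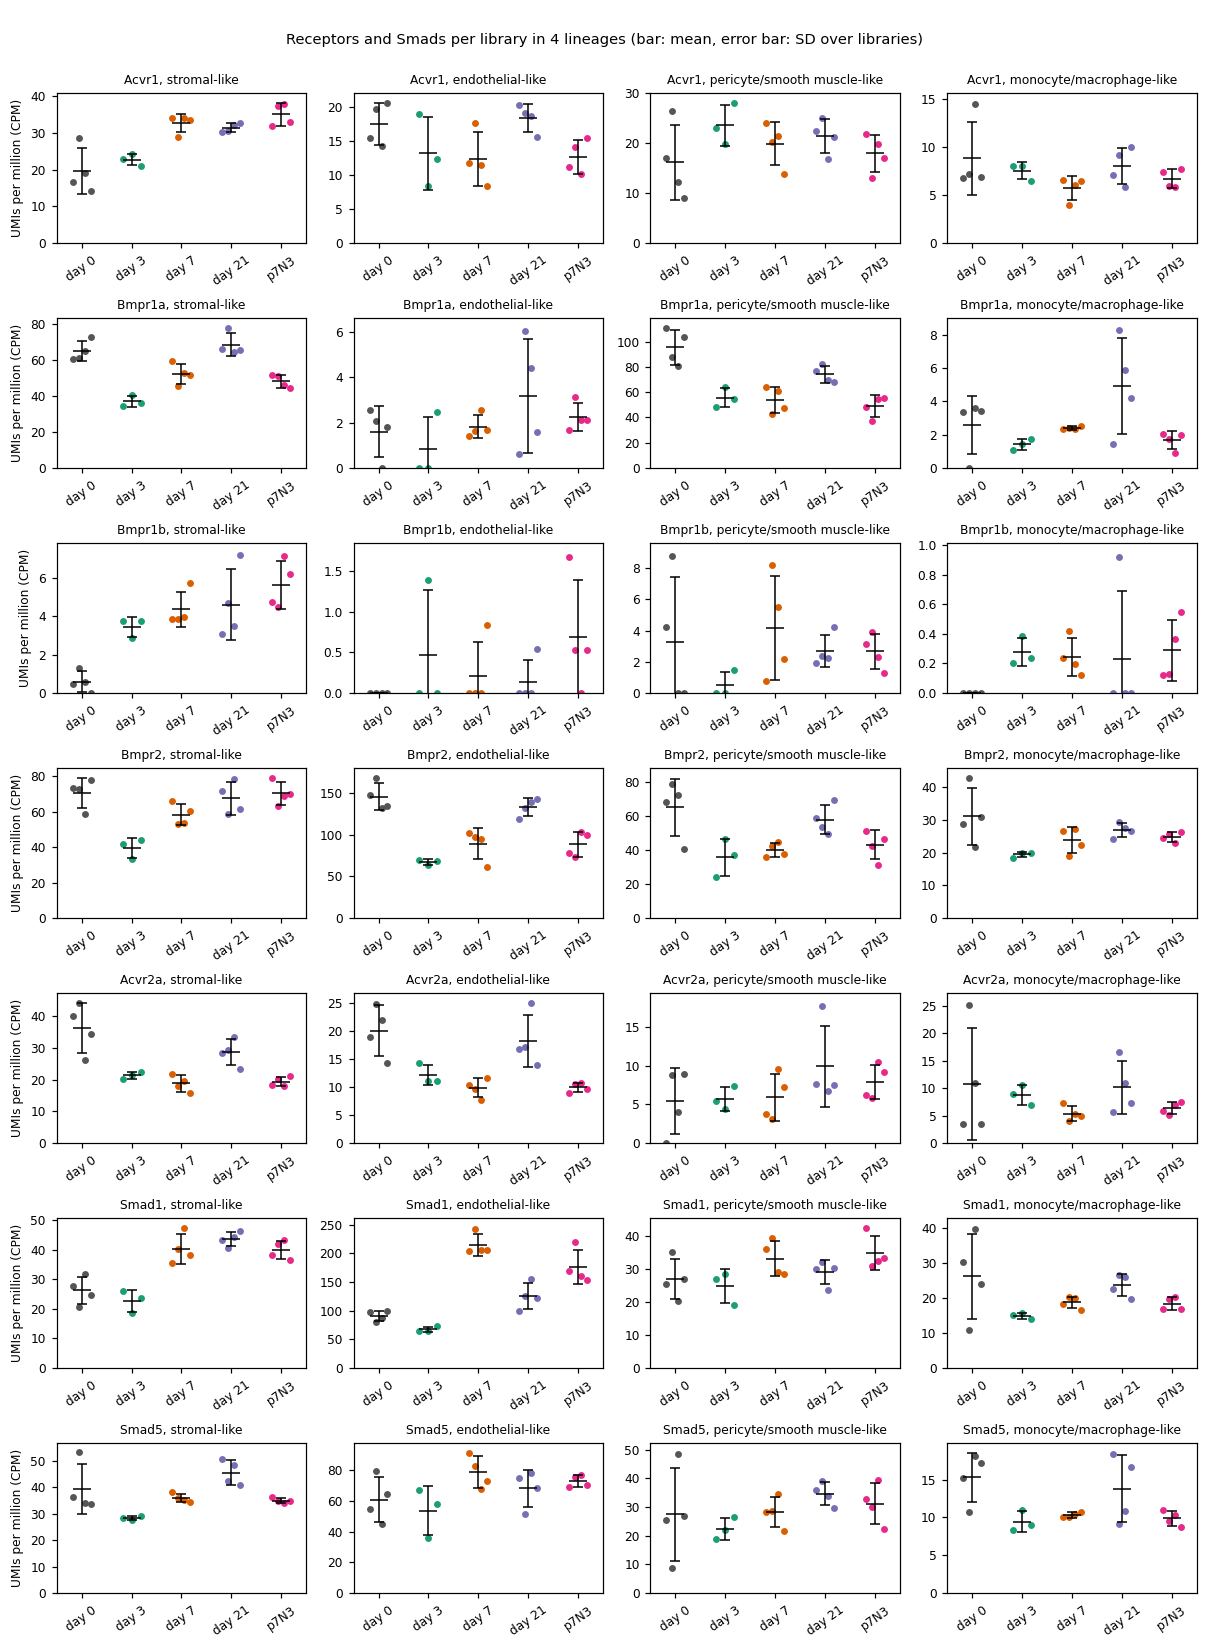
The 5 receptors, Smad1 and Smad5 (rows) in each library of 4 lineages (columns), in CPM, by group, with points for libraries, bars for means and error bars for SDs. The mean of Bmpr2 is lowest at day 3 in stromal-like and endothelial-like cells. In endothelial-like cells day 7 replicate 4, at 61.6, lies below the libraries of day 3. Smad1 in endothelial-like cells peaks at day 7, with 204 to 242 against 79.6 to 98.5 at day 0.

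Smad1 in endothelial-like cells took its own course. The libraries had 98.2, 79.6, 87.9 and 98.5 CPM at day 0, 64.0, 65.0 and 72.7 at day 3, 204, 242, 206 and 205 at day 7, and 99.9, 125, 155 and 122 at day 21. The day 7 libraries lay above all the others of the time course, at a time when Id1 and Id3 were low in these cells. Smad1 rose by 1.58 ± 0.13 on the log2 scale from day 3 to day 7 (adjusted p = 2.09e-05) and fell by 0.75 ± 0.12 from day 7 to day 21 (adjusted p = 0.000786). At day 21 it stood 0.49 ± 0.14 above day 0 (adjusted p = 0.0172), and without day 0 replicate 2 this was 0.42 (adjusted p = 0.059). The Plvap cluster had the day 7 peak, with 139, 67.5, 215 and 149 CPM at days 0, 3, 7 and 21. The capillary cluster had 88.0, 154 and 100 at days 0, 7 and 21. Its day 7 level came from 1 library with 19 cells and has no spread.

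In stromal-like cells Smad1 had 27.9, 20.8, 31.7 and 24.8 CPM at day 0, 25.9, 18.5 and 23.7 at day 3, 35.6, 40.3, 47.4 and 38.3 at day 7, and 43.3, 40.5, 44.4 and 46.5 at day 21. The first 2 groups overlapped and lay below the last 2. It rose by 0.76 ± 0.15 on the log2 scale from day 3 to day 7 (adjusted p = 0.00373) and by 0.72 ± 0.13 from day 0 to day 21 (adjusted p = 0.000972). In monocyte/macrophage-like cells Smad1 fell by 0.79 ± 0.27 to day 3 (adjusted p = 0.0258) and rose by 0.38 ± 0.10 to day 7 (adjusted p = 0.0191), between means of 26.2, 14.9 and 18.8 CPM. The fall was not called without day 0 replicates 1, 3 or 4 (adjusted p from 0.0941 to 0.288), nor the rise without day 3 replicates 1 or 3 (adjusted p of 0.0577 and 0.076).

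Smad5, the second carrier, was called in stromal-like cells alone among the 4 lineages. Its means in stromal-like cells were 39.3 ± 9.36 CPM at day 0, 28.3 ± 0.81 at day 3, 35.9 ± 1.59 at day 7 and 45.5 ± 4.69 at day 21. The rise from day 7 to day 21 was 0.37 ± 0.09 on the log2 scale (adjusted p = 0.0134). That from day 3 to day 7, 0.27 ± 0.09 (adjusted p = 0.037), was not called without any 1 of the 3 day 3 libraries or day 7 replicates 1, 2 or 3 (adjusted p from 0.0619 to 0.110) or by DESeq2 (adjusted p = 0.0846), without the filter on low counts (adjusted p = 0.0655) or under the replicate block (adjusted p = 0.136).

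Further genes of the pathway, 24 from a list chosen with earlier results of these data known, moved in several directions. In stromal-like cells 13 of the 20 tested fell by day 3 and 4 rose (66.1% of all genes tested were called there), with a median log2 change of -0.62. The co-receptors Rgma (-1.54) and Rgmb (-2.0), the receptor Acvrl1 (-0.81) and the target genes Hey1 (-3.22), Msx1 (-2.50) and Id4 (-2.10) were among those that fell. Smad7, an inhibitor of the pathway, rose by 1.25 there. By day 21 against day 7, 10 of 21 rose and 2 fell (33.6% of all genes), Hey1 by 1.67, Msx1 by 1.35 and the inhibitor Smad6 by 1.02 among the first, and the pseudoreceptor Bambi (-0.79) and the E protein Tcf3 (-0.35) as the second.

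In endothelial-like cells 10 of the 16 pathway genes tested fell by day 3 and 1 rose (median -1.02, with 57.8% of all genes called). Acvrl1, the BMP receptor of the endothelium, fell by 1.41 and the target genes Hey1 and Atoh8 by 1.90 and 1.66. Smad7 fell by 2.06 there. From day 7 to day 21, 9 of 18 rose and 2 fell (median 0.59, with 28.4% of all genes called), with Atoh8 at 1.97, Smad7 at 1.56, Acvrl1 at 1.11 and Hey1 at 1.10. In pericyte/smooth muscle-like cells 2 rose and 4 fell of 10 by day 3 (57.1% of all genes), and 7 rose and 2 fell of 19 from day 7 to day 21 (31.1%). In monocyte/macrophage-like cells 1 rose and 6 fell of 9 by day 3 (53.2%), and 3 rose and 1 fell of 13 from day 7 to day 21 (13.3%). All comparisons with day 7 or day 0 share those libraries and are not independent of each other.

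The last question was whether p7N3 changed these genes at day 7. No member was called in any lineage: 0 of 10 in stromal-like (0.0% of all genes called), 0 of 8 in endothelial-like (0.0%), 0 of 9 in pericyte/smooth muscle-like (0.0106%) and 0 of 9 in monocyte/macrophage-like cells (0.0%). With edgeR 1 member had an unadjusted p under 0.05 in stromal-like cells and 1 in endothelial-like cells, as with DESeq2, and none in the others. Across all genes DESeq2 called 69 genes in stromal-like, 4 in endothelial-like, 32 in monocyte/macrophage-like and 1 in pericyte/smooth muscle-like cells, with no member among them. None of the 24 pathway genes was called in the 4 lineages either.

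Bmpr2 in stromal-like cells had 79.2, 63.5, 69.1 and 70.0 CPM with p7N3 and 66.1, 53.2, 53.7 and 60.6 at day 7, groups that overlap (0.28 ± 0.09, adjusted p = 0.389). Smad1 in endothelial-like cells had 170, 219, 161 and 153 CPM with p7N3, where 1 library lay within the range of day 7 (-0.30 ± 0.12, adjusted p = 0.533). Id1 in stromal-like cells was 5.45, 6.38 and 6.20 CPM in p7N3 replicates 1 to 3, where day 7 had 5.55 to 7.43, and 15 in replicate 4 (0.37 ± 0.30, adjusted p = 0.683). Means of Id3 with p7N3 were 225 ± 19.5 CPM in stromal-like and 542 ± 95.7 in endothelial-like cells, where day 7 had 220 ± 8.10 and 612 ± 130. Id2 in monocyte/macrophage-like cells was 321, 316, 297 and 366 CPM with p7N3 and overlapped day 7 (0.18 ± 0.15, adjusted p = 0.807). The edgeR test of a difference between lineages in the response to p7N3 also called none of the 10 members (none had an unadjusted p under 0.05, and DESeq2 called none), for stromal-like minus monocyte/macrophage-like and for endothelial-like minus stromal-like cells, where 0.0% of all genes were called in each.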

How the data were processed

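Single cells of the injury site were captured in droplets, and the authors aligned the reads with Cell Ranger to mm10 and deposited matrices of raw counts, the UMIs of 27998 genes in each barcode. The labels name the build GRCh38 for replicates 1 to 3 and mm10 for the 4 replicate 4 libraries (day 3 has no replicate 4), while the gene names of all files are those of mouse.

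Barcodes with fewer than 500 genes or over 25% mitochondrial UMIs were removed. Any 2 libraries shared at most 1.26% of the barcodes of the smaller one. Cells were clustered on 2000 variable genes, 30 principal components and 20 neighbours (leidenalg 0.10.2, resolution 0.8), with 48 genes, the members among them, held out. The resulting 36 clusters were named from marker lists, so the names are rebuilt and not those of the study. Large clusters left unnamed, and large tenocyte-like ones led also by a chondrocyte marker, were split once more (resolution 0.3). Their parts were then named in the same way. The markers Trac, Trbc2 and Ighm were not used here. Doublets were not removed, except in an alternative that took out the 1541 cells with the highest doublet scores.

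UMIs were summed per library and lineage where at least 10 cells were present. Sums were compared with edgeR 4.0.16 in R 4.3.3 (quasi-likelihood test, TMM factors, its filter on low counts, Benjamini-Hochberg adjustment over all genes, threshold 0.05), with DESeq2 1.42.0 as an alternative. The study tested cells as replicates, and libraries were used here. The test was also run on simulated stromal-like and endothelial-like sums, with the same dispersion for every gene and few changed genes. Many comparisons here called far more genes, and that run does not show how the test does there. Shares of cells were taken after thinning each cell to 1500 UMIs, and for Bmpr1b also to 3000. Intervals and counts of UMIs cover counting error only. Replicate numbers were not used as pairs, because in no comparison did every same-numbered pair correlate above 0.1 (correlations from -0.18 to 0.29). The nearest was p7N3 against day 7 in stromal-like cells, with 3 of 4 pairs above it. Named genes are the 10 members, genes of the pathway list past the threshold and, for each member, the 3 genes most like it. The members and lists were chosen with earlier results of these data known.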

Additional observations from a re-analysis of the deposited data

Results flagged for a closer look

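Of 158 sets of 4 libraries examined, 14 held a library far from the rest by Dixon's test at 95%, where chance flags about 1 in 20. In stromal-like cells these were Id1 with p7N3, at 15 CPM in replicate 4, the library without a labelled harvest day (5.45 to 6.38 in the others), Smad5 at day 0 with 53.2 in replicate 2 (33.8 to 36.4), Bmpr1a at day 21 with 78.2 in replicate 2 (64.4 to 66.4), Acvr1 at day 7 with 28.9 in replicate 2 (33.6 to 34.2) and Bmpr1b at day 7 with 5.72 in replicate 4 (3.85 to 3.97). In endothelial-like cells they were Bmpr2 at day 7 with 61.6 in replicate 4 (95.7 to 102), Smad1 at day 7 with 242 in replicate 2 (204 to 206) and Id3 with p7N3 at 685 in replicate 2 (481 to 509). Bmpr1b was flagged there with 0.832 at day 7 and 0.536 at day 21, both in replicate 4. Each was a single UMI where the other libraries had none. A lone UMI of this kind is always flagged, so the rate of chance does not apply to it.

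In pericyte/smooth muscle-like cells Acvr2a had 17.8 CPM in day 21 replicate 2 (6.75 to 7.67 in the others). In monocyte/macrophage-like cells Acvr1 had 14.5 in day 0 replicate 3 (6.74 to 7.15) and Bmpr1a had 0.0 in day 0 replicate 2 (3.37 to 3.62). These day 0 levels rest on few UMIs. Bmpr1b had 0.918 in day 21 replicate 2, a single UMI, with none in the others.

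The change from day 0 to day 3 differed between lineages in 4 tests with edgeR. Stromal-like minus monocyte/macrophage-like cells gave -3.03 for Id2 and -2.18 for Id3 on the log2 scale, and endothelial-like minus stromal-like cells gave 2.01 for Id2 and 0.52 for Id1, the last of which DESeq2 did not call.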

How the results depend on the processing

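Of the members called per comparison, the count moved by over 1.5 times under these alternatives. Under the replicate block it was 3 in place of 6 in stromal-like cells (day 7 against day 3), and in monocyte/macrophage-like cells 2 in place of 4 (day 3 against day 0) and 3 in place of 5 (day 7 against day 3). Over all 20 comparisons the block called 53 and the fit without it 59, and in 0 of 20 did every number correlate best with its own (3 of 4 did in stromal-like cells for p7N3 and in pericyte/smooth muscle-like cells for day 21 against day 0). With replicates 1 to 3 only, chosen after seeing the data, it was 3 in place of 5 and 1 in place of 4 in pericyte/smooth muscle-like cells (day 21 against day 7 and day 0), and 2 in place of 4 and 3 in place of 5 in monocyte/macrophage-like cells (day 3 against day 0, day 7 against day 3). The replicate 4 libraries alone allow no test, with 1 library a group. With at least 10 UMIs in every library it was 2 in place of 4 in pericyte/smooth muscle-like cells (day 21 against day 0), and 1 in place of 4 (day 3 against day 0) and 1 in place of 2 (day 21 against day 0) in monocyte/macrophage-like cells, with fewer genes tested. Without the filter it was 2 in place of 1 in endothelial-like cells (day 7 against day 3) and 1 in place of 0 in monocyte/macrophage-like cells (day 21 against day 7). In pericyte/smooth muscle-like cells it was 2 in place of 4 with at most 10% mitochondrial UMIs (day 3 and day 21 against day 0) and with doublets removed (day 3 against day 0), and 0 in place of 1 with at least 30 cells or with 1 fit of all 5 groups (day 7 against day 3). With all genes allowed in clustering it was 2 in place of 4 in monocyte/macrophage-like cells (day 3 against day 0). With tenocyte-like and chondrocyte-like cells added it was 8 in place of 4 in stromal-like cells (day 21 against day 0), and Acvr1 from day 7 to day 21 turned from -0.02 to 0.40. DESeq2 called 1 lineage difference between endothelial-like and stromal-like cells at day 3 in place of 2. The causes were not tested. With 1 fit of all 5 groups 9 members were called in place of 6 in stromal-like cells (day 3 against day 0).

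Leaving out 1 library gave these ranges, in the order day 3 against day 0, day 7 against day 3, day 21 against day 7 and day 21 against day 0. They were 6 to 8, 4 to 6, 6 to 6 and 4 to 6 in stromal-like, 3 to 4, 1 to 2, 5 to 6 and 2 to 3 in endothelial-like, 3 to 5, 0 to 1, 4 to 5 and 1 to 3 in pericyte/smooth muscle-like, and 2 to 4, 2 to 5, 0 to 1 and 2 to 3 in monocyte/macrophage-like cells. The lineage differences at day 3 gave 2 to 4 (stromal-like minus monocyte/macrophage-like) and 1 to 2 (endothelial-like minus stromal-like), and all p7N3 comparisons gave 0. Of 1523 single values with a library left out, none turned its sign after a call, 51 lost the call and 20 gained one.

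With library sizes alone, also chosen after seeing the data, 61 members were called, and the median of all genes moved to -0.14 in endothelial-like (day 3 against day 0) and monocyte/macrophage-like cells (day 21 against day 0) and to 0.13 in pericyte/smooth muscle-like cells (day 7 against day 3). The share of higher genes among those called went from 51.9% to 62.3% in stromal-like, 44.9% to 62.1% in endothelial-like, 35.5% to 62.0% in pericyte/smooth muscle-like and 47.6% to 37.1% in monocyte/macrophage-like cells (day 7 against day 3), and from 46.2% to 31.8% in the last (day 21 against day 0). At least 30 cells per sum left no endothelial-like library of day 3, so 2 comparisons could not be run. Day 0, with the fewest UMIs, and the 26 to 28 endothelial-like cells of each day 3 library limit what can be seen of scarce genes.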

Other observations

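Across the 51 means of lineage and group, the levels of each member were compared with 13518 genes by Pearson's r of log2(CPM + 1), given as a description, since the points share libraries and depth. Id1 was most like Hey1 (r = 0.84), another BMP and Notch target, then Dock6 (0.83) and Sdpr (0.83). Id3 was most like Adamts1 (0.86), Tns2 (0.85) and Lamb2 (0.85), and Id2 like Ifngr1 (0.75), Smpdl3a (0.72) and Ahcyl2 (0.68). Smad1 was most like Ppfibp1 (0.91), Ctnnb1 (0.90) and Ephb4 (0.89). Acvr1 was most like Nenf (0.91), and Bmpr1b like Shc2 (0.85) and Wnt5b (0.83). Among the members, Acvr1 and Bmpr2 (0.82), Smad1 and Smad5 (0.81) and Id1 and Id3 (0.79) were most alike, whereas Id2 had r from -0.35 to 0.00 with the others.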
